A study of Homo sapiens with 18 samples.

Results

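The genes followed here are CEACAM1, CEACAM5, CEACAM6, CEACAM7 and CEACAM19, which encode cell adhesion molecules of the carcinoembryonic antigen family. They were chosen by gene name, with earlier results of these data known. They are 5 of the 36204 gene names on the array, read by 7 of its 50599 probes. Their RNA was compared between HT29, an established human colorectal cancer line, and HTOXAR3, a subline with acquired resistance that was selected from HT29 by continuous culture in rising doses of oxaliplatin (OXA). HT29 was left untreated, or was given 10 µM OXA, or 10 µM OXA plus 10 µM Curcumin, for 24 h. HTOXAR3 was left untreated, or was given 30 µM OXA, or 30 µM OXA plus 10 µM Curcumin, for 24 h. Each of these 6 groups had 3 biological replicates per the labels, 1 one-colour array each, which made 18 arrays. After treatment a comparison of the lines also compares the OXA doses, and these cannot be told apart. None of the 18 arrays came from cells given Curcumin alone, so its effect without OXA was not measured on them. Between 52.4% and 63.6% of the spots stood well above background on an array, and 3 arrays a group limit the precision of every value. The arrays came from 3 slides.

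CEACAM proteins are surface glycoproteins of the immunoglobulin superfamily, and they bind the same or another CEACAM on a neighbouring cell. CEACAM5, CEACAM6 and CEACAM7 are held in the membrane by a glycosylphosphatidylinositol (GPI) anchor, whereas CEACAM1 crosses the membrane and can signal through a tail that recruits the phosphatases SHP-1 and SHP-2. CEACAM5 is the carcinoembryonic antigen that is followed in blood as a marker of colorectal cancer, and CEACAM5 and CEACAM6 are often raised in these tumours while CEACAM7 is usually reduced.

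Levels are normalized log2 intensities, given in the order of replicates 1, 2 and 3. They compare groups for 1 probe and not 1 probe with another. A difference was called when limma gave a Benjamini-Yekutieli (BY) adjusted p under 0.05, over all gene names, and a fold change above 1.2.

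CEACAM6, a GPI-anchored adhesion molecule of epithelial cells and granulocytes, was read by probe A_23_P218442 at chr19:42275434-42275493 on the plus strand of hg19. In untreated HT29 its level was 8.38, 8.50 and 8.55. With OXA the HT29 arrays read 6.33, 6.69 and 6.71, and with OXA plus Curcumin they read 7.18, 7.11 and 7.29. The 3 HT29 groups did not overlap, with the untreated arrays highest and the OXA arrays lowest. In untreated HTOXAR3 the level was 7.01, 6.71 and 7.07, below every untreated HT29 array. The HTOXAR3 arrays read 6.11, 5.97 and 5.87 with OXA and 6.11, 6.02 and 5.91 with OXA plus Curcumin. Both treated HTOXAR3 groups lay below the untreated HTOXAR3 arrays and overlapped each other. From high to low the order of means was untreated HT29 (8.48), HT29 with OXA plus Curcumin (7.19), untreated HTOXAR3 (6.93), HT29 with OXA (6.58), HTOXAR3 with OXA plus Curcumin (6.01) and HTOXAR3 with OXA (5.98). Of the neighbours in that order only the last 2 groups overlapped.

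With OXA, CEACAM6 fell by 1.90 in HT29 (SE 0.12, 3 arrays a group, BY adjusted p = 3.7e-07). In HTOXAR3 it fell by 0.95 with OXA (SE 0.12, BY adjusted p = 0.000614). Fewer cells with a transcript and less RNA per cell cannot be told apart in these bulk samples. Within single slides the differences were -2.05, -1.81 and -1.85 in HT29 and -0.75 and -1.15 in HTOXAR3, and with the slide as a block they were -1.90 and -0.95. Here and below, a value within a slide rests on only 2 to 4 arrays and had no test. Each of these HT29 slide values rests on 2 arrays. The response of HTOXAR3 was smaller by 0.96 on the log2 scale (SE 0.17), a line difference that was not called (BY adjusted p = 0.0594). That line difference was called with the slide as a block (0.95, BY adjusted p = 0.0478), and over 8 alternative settings its adjusted p ran from 0.00125 to 0.344. When only the arrays of HTOXAR3 with and without OXA entered the fit, the fall in HTOXAR3 was not called (adjusted p = 0.114).

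OXA plus Curcumin also lowered CEACAM6 against untreated cells, with differences of -1.29 in HT29 (SE 0.12, BY adjusted p = 1.34e-05) and -0.92 in HTOXAR3 (SE 0.12, BY adjusted p = 0.000364). The slides gave -1.36 and -1.26 in HT29 and -0.75 and -1.10 in HTOXAR3, and the slide block gave -1.37 and -0.92. The fall in HTOXAR3 was not called when only its own arrays were fitted (adjusted p = 0.0595). Against OXA alone, adding Curcumin raised CEACAM6 in HT29 by 0.62 (SE 0.12, BY adjusted p = 0.033). This call was lost with the slide as a block (0.53, adjusted p = 0.0912), with the replicate block (0.62, adjusted p = 0.0677), with only the groups compared (adjusted p = 0.906) and when any 1 of the 6 arrays was left out (0.49 to 0.68, adjusted p 0.0531 to 0.163). The slides gave 0.45 and 0.58. In HTOXAR3 the difference from OXA alone was 0.03 (SE 0.12, 95% interval -0.22 to 0.28).

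Between the lines CEACAM6 was lower in HTOXAR3 in all 3 conditions. The difference was -1.55 untreated (SE 0.12, BY adjusted p = 3.15e-06), -0.59 with OXA (BY adjusted p = 0.0187) and -1.18 with OXA plus Curcumin (BY adjusted p = 4.43e-05). The slides gave -1.64 and -1.48 untreated, -0.58 and -0.79 with OXA, and -1.03 and -1.33 with OXA plus Curcumin. The slide block gave -1.63, -0.68 and -1.18. The call with OXA was lost when only these arrays were fitted (adjusted p = 0.422) and without HT29 OXA replicate 2 (-0.54, adjusted p = 0.12), HT29 OXA replicate 3 (-0.53, 0.114), HTOXAR3 OXA replicate 2 (-0.59, 0.0851) or HTOXAR3 OXA replicate 3 (-0.54, 0.11).

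CEACAM5, carcinoembryonic antigen, was read by probe A_23_P153301 at chr19:42224984-42225043 on the plus strand of hg19. Its probe is shown because it is the only one that reads the tumour marker itself.
CEACAM5: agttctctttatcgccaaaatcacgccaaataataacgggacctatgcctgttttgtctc
The level of CEACAM5 was 7.02, 6.60 and 6.53 in untreated HT29 and 4.73, 4.55 and 4.42 in HT29 with OXA, with no overlap. HT29 with OXA plus Curcumin read 5.25, 5.37 and 6.58, where replicate 3 stood apart and reached into the untreated range. Untreated HTOXAR3 read 5.35, 5.78 and 5.44. HTOXAR3 with OXA read 4.67, 5.08 and 6.22, again with replicate 3 apart and above the untreated arrays. HTOXAR3 with OXA plus Curcumin read 5.08, 4.42 and 4.61, and only replicate 3 of that group was well above background. In all, 16 of 18 arrays detected CEACAM5. Ordered by mean, untreated HT29 (6.72) came before HT29 with OXA plus Curcumin (5.73), untreated HTOXAR3 (5.52), HTOXAR3 with OXA (5.32), HTOXAR3 with OXA plus Curcumin (4.70) and HT29 with OXA (4.57). Each of these groups overlapped the next.

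CEACAM5 fell by 2.15 with OXA in HT29 (SE 0.38, 95% interval -2.97 to -1.34, BY adjusted p = 0.00639). The slides gave -2.29, -2.05 and -2.11 and the slide block gave -2.15. Its size depended on the processing, from -2.67 with the scanner's processed signal to -1.08 with a normexp offset of 50, and 8 of 8 alternative settings called it (adjusted p 0.000577 to 0.0199). It was the only called difference of CEACAM5 among the 12 comparisons. In HTOXAR3 the difference with OXA was -0.20 (95% interval -1.01 to 0.62), and within slides it was -0.89 and 0.21. The line difference in this response, 1.95 (SE 0.54), was not called (BY adjusted p = 0.824). Adding Curcumin to OXA gave a difference of 1.16 in HT29 (SE 0.38, BY adjusted p = 0.698), with 0.76 and 2.16 within slides and 0.74 to 1.40 when 1 array was left out. In HTOXAR3 it gave -0.62, a value against a group with 2 of 3 arrays not well above background, with 0.40 and -1.14 within slides and -0.95 to -0.17 when 1 array was left out. Untreated HTOXAR3 lay below untreated HT29 by a difference of -1.20 without overlap, which was not called (BY adjusted p = 0.435) except with Benjamini-Hochberg (adjusted p = 0.0392).

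CEACAM7, a GPI-anchored molecule of mature colonocytes, was read by probe A_24_P228302 at chr19:42178108-42178167 on the minus strand of hg19. Its level was 7.31, 7.51 and 7.46 in untreated HT29, 6.27, 6.32 and 5.95 with OXA, and 6.49, 6.22 and 6.55 with OXA plus Curcumin. In HTOXAR3 it was 6.33, 6.33 and 6.26 untreated, 5.82, 5.67 and 5.75 with OXA, and 5.72, 5.89 and 7.43 with OXA plus Curcumin. In the order of means untreated HT29 (7.43) came first, then HT29 with OXA plus Curcumin (6.42), HTOXAR3 with OXA plus Curcumin (6.34), untreated HTOXAR3 (6.31), HT29 with OXA (6.18) and HTOXAR3 with OXA (5.75). The first and the last group did not overlap the group next to them, while the 4 between overlapped their neighbours. HTOXAR3 with OXA plus Curcumin spanned from the range of HTOXAR3 with OXA to that of untreated HT29, because its replicate 3 stood apart. No difference of CEACAM7 was called, though some were with other settings or with 1 array left out. With OXA in HT29 it was -1.25 (SE 0.31, BY adjusted p = 0.0885), with no overlap and with -1.04, -1.19 and -1.51 within the slides, and it was called with an offset of 50 (-0.85, adjusted p = 0.0314), dim names left out (0.0386), Benjamini-Hochberg (0.008) and only the groups compared (0.0396). In HT29 with OXA plus Curcumin it was -1.01 (BY adjusted p = 0.284), called with Benjamini-Hochberg (adjusted p = 0.0257) and only the groups compared (0.0413). Between the untreated lines it was -1.12 (BY adjusted p = 0.219), called with Benjamini-Hochberg (adjusted p = 0.0198) and only the groups compared (0.0147). Without replicate 3 of HTOXAR3 with OXA plus Curcumin, the line difference under that treatment changed from -0.07 to -0.62 and was called (BY adjusted p = 0.0292). The other CEACAM7 probe, A_33_P3254844 at chr19:42178454-42178513, was not well above background on any of the 18 arrays (0 of 18). Averages over both CEACAM7 probes are therefore left out of this paragraph, and enter only where the dependence on processing is described.

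**Figure D1:**
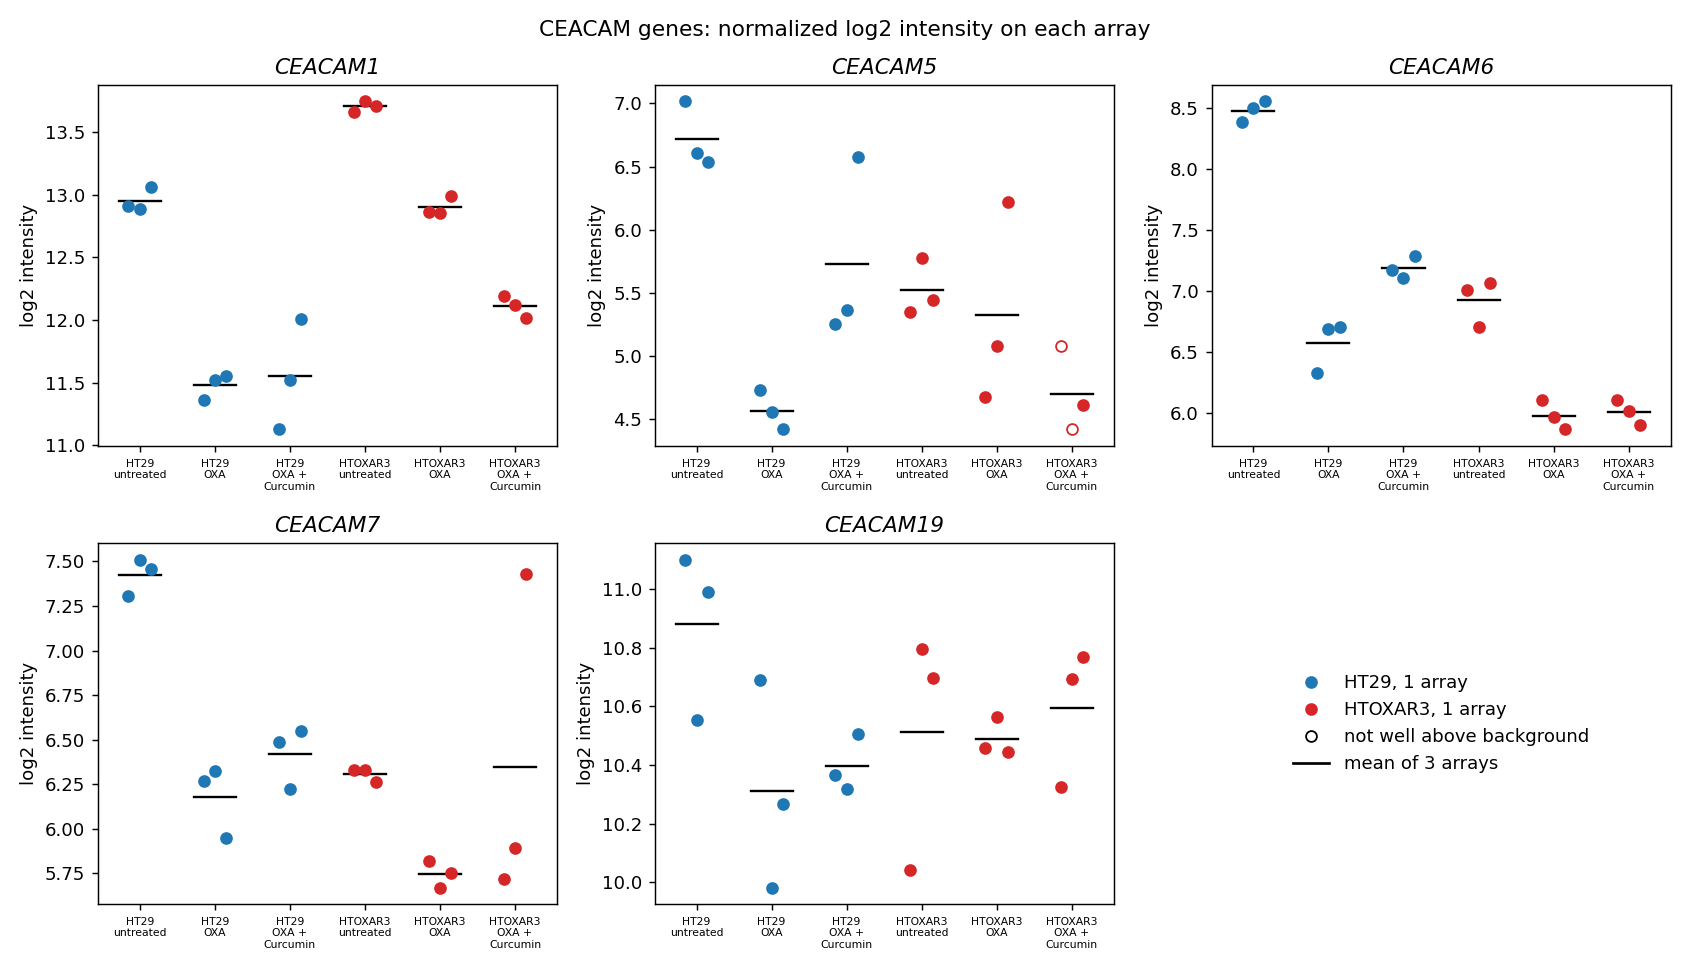
Normalized log2 intensity of each CEACAM gene (vertical axis) in the 6 groups (horizontal axis), with 1 point for each array, a bar at the mean of 3 arrays and open points where the spot was not well above background. CEACAM6 lies between 8.38 and 8.55 in untreated HT29 and between 5.87 and 6.11 in HTOXAR3 with OXA, while single arrays stand apart for CEACAM5 and CEACAM7.

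The promoters of 4 of the 5 genes were found in RefSeq (GRCh38.p14), all on chromosome 19, and are shown because CEACAM5, CEACAM6 and CEACAM1 were each lower with OXA in HT29. The 150 bases before each start are given 5′ to 3′ on the strand of the gene, at chr19:41708476-41708625 (plus) for CEACAM5, chr19:41755380-41755529 (plus) for CEACAM6, chr19:41688271-41688420 (minus) for CEACAM7 and chr19:42528482-42528631 (minus) for CEACAM1. Capitals mark motif matches.
CEACAM5: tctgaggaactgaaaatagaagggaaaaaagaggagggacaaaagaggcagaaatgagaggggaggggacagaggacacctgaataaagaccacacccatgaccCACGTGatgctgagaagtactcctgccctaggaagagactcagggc
CEACAM6: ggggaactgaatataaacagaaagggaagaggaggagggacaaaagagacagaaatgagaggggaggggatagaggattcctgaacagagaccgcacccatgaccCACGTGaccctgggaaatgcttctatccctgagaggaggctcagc
CEACAM7: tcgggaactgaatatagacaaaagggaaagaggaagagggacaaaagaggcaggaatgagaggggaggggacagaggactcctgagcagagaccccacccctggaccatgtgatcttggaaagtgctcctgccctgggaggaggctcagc
CEACAM1: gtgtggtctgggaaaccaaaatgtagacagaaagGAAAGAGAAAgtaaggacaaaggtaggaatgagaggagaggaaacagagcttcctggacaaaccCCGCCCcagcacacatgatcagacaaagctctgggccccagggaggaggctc
The E-box CACGTG, searched on both strands of the 250 bases before the start, was found in CEACAM5 (46 to 41 bases before the start) and in CEACAM6 (45 to 40 bases before), and 6.28% of 27305 promoters held it. The GC box GGGCGG was found on the opposite strand of CEACAM1 (52 to 47 bases before the start) and in CEACAM6 (211 to 206 bases before, upstream of the bases shown), and 41.3% of promoters held it. The interferon regulatory factor element GAAANNGAAA was found in CEACAM1 (its first base 116 bases before the start), with 3.14% of promoters. None of these 3 motifs was matched in CEACAM7. The longest run of identical bases was 25 between CEACAM5 and CEACAM7, 21 between CEACAM5 and CEACAM6 and 17 between CEACAM6 and CEACAM7, against 10 to 12 between CEACAM1 and any of these. A match describes the letters and was not tested as a binding site.

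CEACAM1, the transmembrane member, had 2 probes that were well above background on 18 of 18 arrays. The probe used for the gene was A_24_P382319 at chr19:43011504-43011563 on the minus strand of hg19. It read 12.91, 12.89 and 13.06 in untreated HT29, 11.36, 11.52 and 11.56 with OXA, and 11.13, 11.52 and 12.01 with OXA plus Curcumin. Both treated HT29 groups lay below every untreated HT29 array and overlapped each other, with a wider spread under OXA plus Curcumin. In HTOXAR3 it read 13.66, 13.75 and 13.71 untreated, 12.86, 12.85 and 12.99 with OXA, and 12.19, 12.12 and 12.01 with OXA plus Curcumin. These 3 HTOXAR3 groups did not overlap. The order of means ran from untreated HTOXAR3 (13.70) over untreated HT29 (12.95), HTOXAR3 with OXA (12.90), HTOXAR3 with OXA plus Curcumin (12.11) and HT29 with OXA plus Curcumin (11.55) to HT29 with OXA (11.48). Untreated HT29 overlapped HTOXAR3 with OXA, and the 2 treated HT29 groups overlapped, while the other neighbours were apart.

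With OXA, CEACAM1 fell by 1.47 in HT29 (SE 0.16, BY adjusted p = 6.75e-05) and by 0.80 in HTOXAR3 (SE 0.16, BY adjusted p = 0.0219). The slides gave -1.55, -1.37 and -1.50 in HT29 and -0.84 and -0.79 in HTOXAR3, and the slide block gave -1.47 and -0.85. The call in HTOXAR3 was lost with the mean of both probes (-0.63, adjusted p = 0.0704) and when any 1 of the 6 arrays was left out (-0.85 to -0.78, adjusted p 0.0576 to 0.112). The line difference in the response, 0.67 (SE 0.22), was not called (BY adjusted p = 1). With OXA plus Curcumin, CEACAM1 fell by 1.40 in HT29 (BY adjusted p = 8.88e-05) and by 1.60 in HTOXAR3 (BY adjusted p = 2.96e-05). The slides gave -1.56 and -1.05 in HT29 and -1.51 and -1.64 in HTOXAR3, and the slide block gave -1.42 and -1.64. In HT29 this call was lost when only the 2 groups were fitted (adjusted p = 0.115).

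Adding Curcumin to OXA left a difference of 0.07 for CEACAM1 in HT29 (SE 0.16, 95% interval -0.26 to 0.41). In HTOXAR3 it lowered CEACAM1 further, with a difference of -0.79 (SE 0.16, BY adjusted p = 0.0271), with -0.67 and -0.86 within slides and -0.79 with the slide block. The call was lost with the mean of both probes (-0.56, adjusted p = 0.173), with only these 2 groups (adjusted p = 0.0788) and when any 1 of the 6 arrays was left out (-0.84 to -0.75, adjusted p 0.0751 to 0.16). The line difference in the effect of adding Curcumin, -0.87 (SE 0.22), was not called (BY adjusted p = 1).

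Between the lines CEACAM1 was higher in HTOXAR3, by 0.75 untreated (SE 0.16, BY adjusted p = 0.0313) and by 1.42 with OXA (BY adjusted p = 9.94e-05). The slides gave 0.81 and 0.65 untreated and 1.34 and 1.37 with OXA, and the slide block gave 0.73 and 1.36. The untreated call was lost with the slide block (adjusted p = 0.067) and when any 1 of the 6 arrays was left out (0.72 to 0.81, adjusted p 0.0663 to 0.152). With OXA plus Curcumin the difference was 0.56 and was not called (BY adjusted p = 0.196). The slides gave 0.87 and 0.06, and leaving out 1 array gave 0.34 to 0.79, called only without HT29 replicate 3 (0.79, BY adjusted p = 0.00189). It was also called with the mean of both probes (0.74, adjusted p = 0.0162) and with Benjamini-Hochberg (0.0177).

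The other CEACAM1 probe, A_33_P3268507 at chr19:43025455-43025514, is shown because some calls differed between the 2 probes.
CEACAM1: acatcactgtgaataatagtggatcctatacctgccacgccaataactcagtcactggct
It read 8.51, 8.47 and 8.57 in untreated HT29, 7.46, 7.37 and 7.62 with OXA, and 7.28, 7.63 and 8.00 with OXA plus Curcumin. In HTOXAR3 it read 9.31, 9.26 and 9.47 untreated, 8.83, 8.79 and 9.04 with OXA, and 8.55, 8.65 and 8.51 with OXA plus Curcumin. Like the first probe it was highest in untreated HTOXAR3 and lowest in HT29 with OXA. Tested among all 50599 probes, it was higher in HTOXAR3 in all 3 conditions, by 0.83 untreated (BY adjusted p = 0.00693), 1.40 with OXA (BY adjusted p = 4.67e-05) and 0.93 with OXA plus Curcumin (BY adjusted p = 0.00226). In HT29 it fell by 1.03 with OXA (BY adjusted p = 0.000768) and by 0.88 with OXA plus Curcumin (BY adjusted p = 0.00267). In HTOXAR3 it fell by 0.78 with OXA plus Curcumin (BY adjusted p = 0.00774), while the difference of -0.46 with OXA (BY adjusted p = 0.403) and that of -0.32 on adding Curcumin (BY adjusted p = 1) were not called. The call on adding Curcumin in HTOXAR3 therefore rests on 1 of the 2 CEACAM1 probes, although the other probe was also lower without overlap. Whether the probes read different transcripts was not tested.

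CEACAM19, a transmembrane member whose role is less known, was read by probe A_23_P78526 at chr19:45184500-45184559 on the plus strand of hg19. It read 11.10, 10.55 and 10.99 in untreated HT29, 10.69, 9.98 and 10.27 with OXA, and 10.37, 10.32 and 10.51 with OXA plus Curcumin. In HTOXAR3 it read 10.04, 10.80 and 10.696 untreated, 10.46, 10.56 and 10.45 with OXA, and 10.32, 10.69 and 10.77 with OXA plus Curcumin. Every group overlapped its neighbour in the order of means, from 10.88 in untreated HT29 to 10.31 in HT29 with OXA. No comparison called CEACAM19. Its difference of largest size was -0.57 with OXA in HT29 (SE 0.21, 95% interval -1.03 to -0.11, BY adjusted p = 0.809).

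Taking the genes by comparison, OXA against untreated HT29 gave the members' median of largest size among the 12 comparisons. There 3 of 5 members were called, all 3 lower, against 15.9% of 36204 gene names called in either direction and 7.62% called lower. The median difference of the members was -1.47, against -0.01 over all gene names, and all 5 lay below 0. Because the members were chosen with earlier results known, the shares here and below describe the members and do not test them. In HTOXAR3 OXA lowered 2 of 5 members, against 10.2% of gene names called and 4.94% called lower, with a median of -0.56 against 0.01. With OXA plus Curcumin 2 of 5 members fell in HT29, against 18.6% called and 9.02% called lower, with a median of -1.01 against -0.03. The same treatment lowered 2 of 5 members in HTOXAR3, against 17.5% called and 8.64% called lower, with a median of -0.82 against -0.01. That median was the difference of CEACAM5, which was not called and ran from -1.52 to -0.33 over 8 alternative settings. In each line both treatments were compared with the same 3 untreated arrays. CEACAM1 and CEACAM6 were the members called in all 4 of these comparisons.

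Untreated HTOXAR3 differed from untreated HT29 in 2 of 5 members, CEACAM1 higher and CEACAM6 lower, against 11.5% of gene names called. The median of the members was -1.12, against -0.03 over all. With OXA the same 2 members differed in the same directions, against 14.1% called, and the median was 0.18 against 0.00. With OXA plus Curcumin 1 of 5 members differed, CEACAM6, against 13.9% called, and the median was -0.07 against 0.01. That median was the value of CEACAM7, which was -0.62 and called without replicate 3 of HTOXAR3 with OXA plus Curcumin. CEACAM1 and CEACAM6 thus went opposite ways between the lines when untreated or given OXA.

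Adding Curcumin to OXA changed 1 of 5 members in HT29, CEACAM6 upward, against 5.53% of gene names called, with a median of 0.24 against -0.02. In HTOXAR3 it changed 1 of 5 members, CEACAM1 downward, against 8.83% called, with a median of 0.03 against -0.02. These comparisons share the OXA arrays with the comparisons of OXA against untreated cells.

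Whether the lines responded differently was tested directly. limma called 0 of 5 members for the line difference in the response to OXA, against 1.01% of gene names, and 3 of 5 had an unadjusted p under 0.05, as had 4944 of 36203 names. For the response to OXA plus Curcumin it called 0 of 5, against 0.856%, with 2 of 5 and 5202 of 36203 names at an unadjusted p under 0.05. For the effect of adding Curcumin to OXA it called 0 of 5, against 0.135%, with 3 of 5 and 3526 of 36203 names at an unadjusted p under 0.05. So the calls of CEACAM5 in HT29 only, of CEACAM6 with Curcumin in HT29 only and of CEACAM1 with Curcumin in HTOXAR3 only are not shown to differ between the lines.

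**Figure D2:**
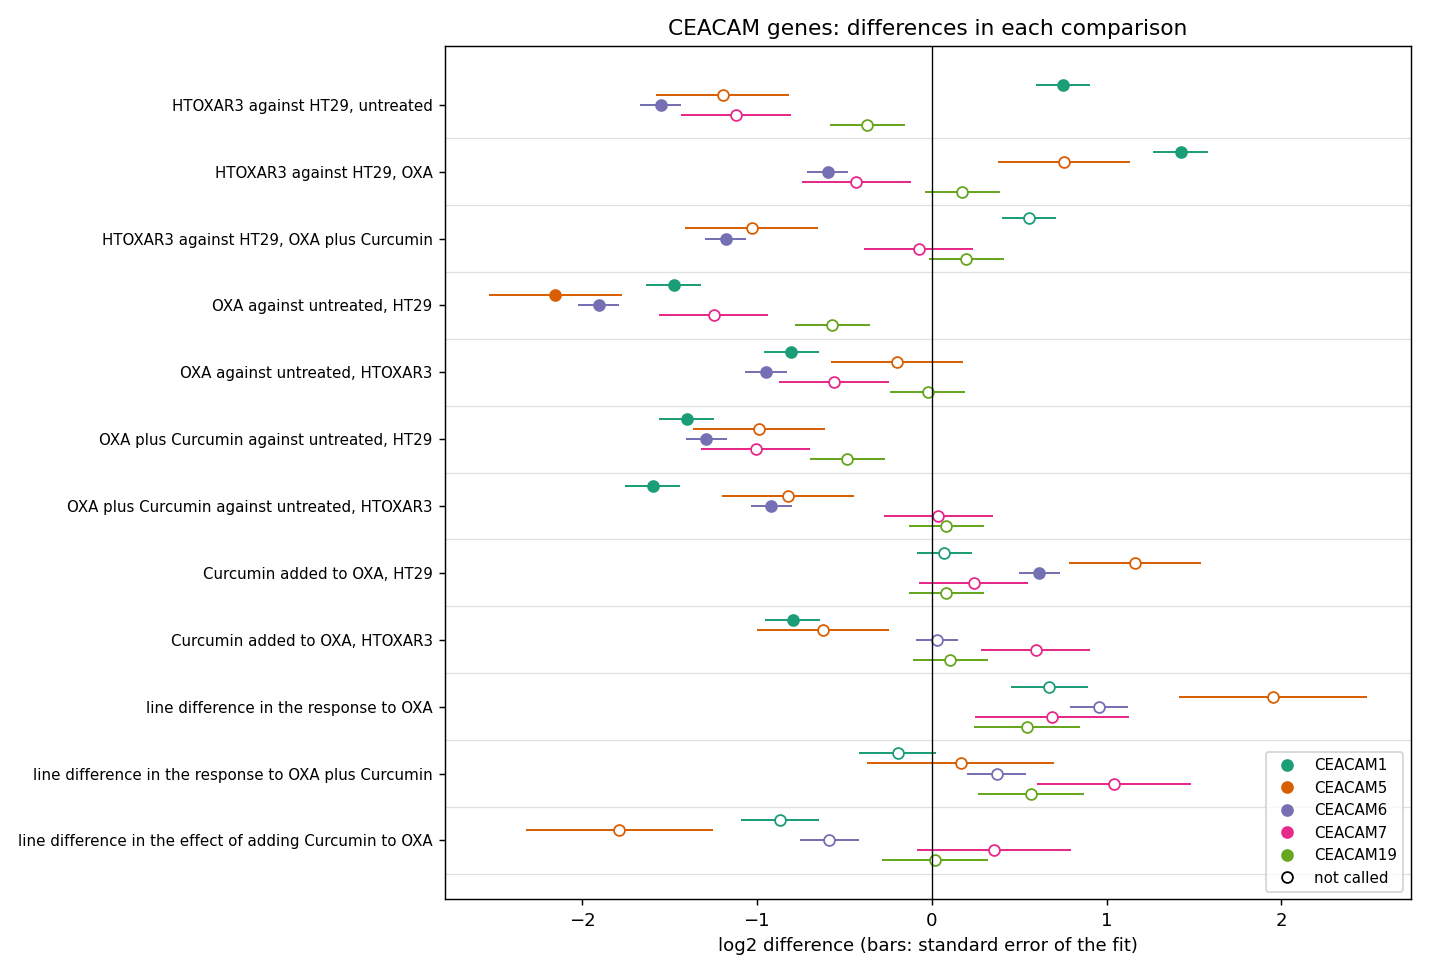
Log2 difference of each CEACAM gene (horizontal axis, bars are the standard error of the fit) in the 12 comparisons (vertical axis), filled where called. CEACAM5 and CEACAM6 lie furthest left for OXA in HT29, at -2.15 and -1.90, and CEACAM1 lies right of 0 in each comparison of HTOXAR3 against HT29.

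CEACAM3, a phagocytic receptor of granulocytes, was 1 of 13 other CEACAM genes and pseudogenes listed, of which 8 were on the array and 2, CEACAM3 and CEACAM20, were above background on 18 of 18 arrays. Its arrays followed those of CEACAM1. The means of CEACAM3 were 6.95, 5.79 and 5.95 in HT29 (untreated, OXA, OXA plus Curcumin) and 7.79, 7.18 and 6.95 in HTOXAR3. It was higher in HTOXAR3 by 0.83 untreated (BY adjusted p = 0.00166), 1.39 with OXA (BY adjusted p = 1.06e-05) and 1.00 with OXA plus Curcumin (BY adjusted p = 0.00026). With OXA it fell by 1.16 in HT29 (BY adjusted p = 5.8e-05) and by 0.61 in HTOXAR3 (BY adjusted p = 0.0254). With OXA plus Curcumin it fell by 1.00 in HT29 (BY adjusted p = 0.000195) and by 0.83 in HTOXAR3 (BY adjusted p = 0.00112). Over 18 arrays the CEACAM3 probe A_23_P130515 correlated with the CEACAM1 probes at r = 0.94 (A_24_P382319) and r = 0.99 (A_33_P3268507), as a description, since arrays of a group share a treatment. The CEACAM3 probe is shown to be set beside the CEACAM1 probe above.
CEACAM3: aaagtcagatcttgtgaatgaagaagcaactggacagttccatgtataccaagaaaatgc
It shared no run longer than 7 bases with a CEACAM1 probe, and no 2 probes of different CEACAM genes tabulated here shared more than 8. These runs compare probes with each other and not with a transcript. They do not address hybridisation of CEACAM1 RNA to the CEACAM3 probes, which was not tested. Among granulocyte markers, 4 of 5 were on the array, CSF3R was above background on all 18 arrays, MPO on 12, ELANE on 6 and CXCR2 on 0.

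**Figure D3:**
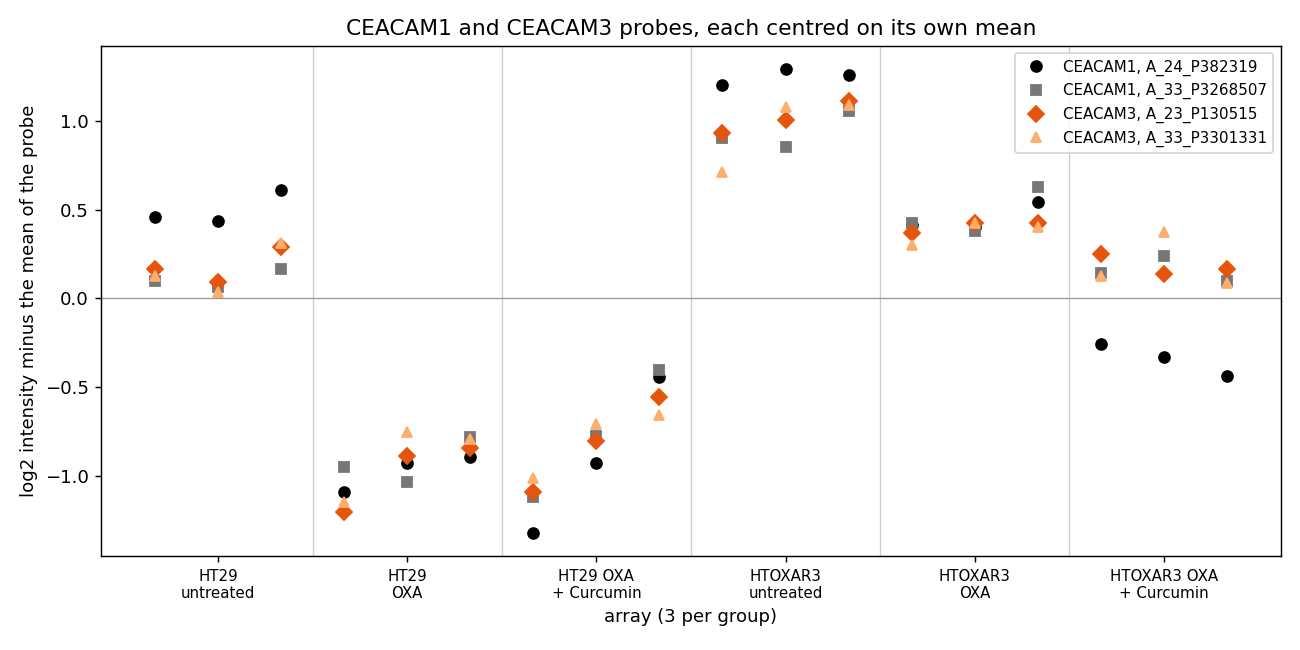
Log2 intensity of 2 CEACAM1 probes and 2 CEACAM3 probes, each minus its own mean over the 18 arrays (vertical axis), on each array of the 6 groups (horizontal axis). The 4 probes lie on the same side of 0 on every array except in HTOXAR3 with OXA plus Curcumin, where the CEACAM1 probe A_24_P382319 lies below 0 and the other 3 lie above it.

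Of the other 7 CEACAM genes on the array none was called in any of the 12 comparisons, and CEACAM20 ranged from 9.46 to 10.03. CEACAM8, CEACAM16 and CEACAM21 were above background on 0 of 18 arrays, CEACAM4 on 15, CEACAM18 on 8 and CEACAM22P, by the probe used for the gene, on 5. The medians of the listed CEACAM genes ran from -0.18 to 0.27 over the comparisons. The pregnancy-specific glycoproteins, placental relatives of the CEACAM genes, had 9 of 11 genes on the array, and none was above background on every array. In limma 0 of 9 were called in each of the 12 comparisons, beside 0.135% to 18.6% of all gene names, with 0 to 2 at an unadjusted p under 0.05, and their medians ran from -0.14 to 0.23.

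All 15 genes listed as binding and signalling partners of the CEACAM proteins were on the array and 13 were above background throughout. With OXA 2 of 15 rose in each line and 0 fell, beside 15.9% of all gene names called in HT29 and 10.2% in HTOXAR3, with medians of -0.04 and 0.17. FLNA, the actin cross-linker filamin A that binds the CEACAM1 tail, rose by 1.63 in HT29 and 0.93 in HTOXAR3, and the receptor EGFR rose by 1.17 and 1.18. With OXA plus Curcumin 3 of 15 rose and 1 fell in HT29 (18.6% of all names called, median -0.03), and 3 rose and 2 fell in HTOXAR3 (17.5% called, median 0.12). PTPN6, which encodes SHP-1, rose there by 0.46 and 0.56, and the insulin receptor INSR was lower by -0.52 and -0.79. PTPN6 was lower in HTOXAR3 than in HT29 in all 3 conditions, at -0.56, -0.51 and -0.46, with 2 genes higher and 1 lower untreated (11.5% of all names called, median -0.16), 1 higher and 2 lower with OXA (14.1% called, median -0.02) and 1 higher and 2 lower with OXA plus Curcumin (13.9% called, median 0.00). PTPN11, which encodes SHP-2, was not called in any comparison. Adding Curcumin raised the adaptor SHC1 by 0.28 in HT29, where EGFR was lower by -0.34 (1 of 15 up and 1 down, 5.53% of all names called, median -0.08), and by 0.39 in HTOXAR3 (1 up and 0 down, 8.83% called, median -0.03).

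The transamidase that attaches the GPI anchor of CEACAM5, CEACAM6 and CEACAM7 had 5 of 5 subunit genes above background on all arrays. GPAA1 was lower by -0.27 in HT29 and -0.30 in HTOXAR3 with OXA plus Curcumin, and lower in HTOXAR3 than in HT29 untreated (-0.26) and with OXA plus Curcumin (-0.29). PIGT rose by 0.37 with OXA in HT29 and PIGK fell by 0.38 when Curcumin was added in HTOXAR3. No more than 1 of 5 subunits was called in any comparison, and where 1 was, 8.83% to 18.6% of all gene names were called, so the count does not set these genes apart. The medians ran from -0.19 to 0.12.

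Of 8 transcription factors listed for CEACAM promoters, 6 were above background on all arrays. IRF1 rose with OXA by 0.77 in HT29 and 0.47 in HTOXAR3, and with OXA plus Curcumin by 0.86 and 0.61. SP1 was lower by -0.33 with OXA in HT29, and by -0.47 in HT29 and -0.40 in HTOXAR3 with OXA plus Curcumin. SP3 was lower in HTOXAR3, at -0.31 untreated and -0.31 with OXA plus Curcumin. USF1 and USF2, which bind E-boxes, were not called in any comparison. At most 2 of the 8 factors were called in a comparison, beside up to 18.6% of all gene names, and the medians of the list ran from -0.11 to 0.04.

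CEACAM7 and CEACAM5 belong to the surface of mature colonocytes, so 20 other genes of that state were listed, all on the array and 8 of them above background throughout. Untreated HTOXAR3 had 5 of 20 lower and 1 higher than HT29, beside 5.28% of all gene names called lower and 6.26% called higher, with a median of -0.47 against -0.03 over all. Among these the lectin gene LGALS4 differed by -2.08, the microvillus gene VIL1 by -1.61, CDH17 by -1.55 and CA2 by -1.53. With OXA 3 of 20 were lower and 2 higher in HTOXAR3 (14.1% of all names called, median -0.17), and with OXA plus Curcumin 4 were lower and 2 higher (13.9% called, median -0.17). OXA against untreated cells gave 2 of 20 higher and 1 lower in HT29, a share near the 15.9% called over all (median 0.01). There VIL1 rose by 1.06 and KLF4 by 1.08, and MUC13 fell by 0.69. In HTOXAR3 OXA gave 2 of 20 higher and 0 lower, near the 10.2% called over all (median 0.16), with KLF4 up by 1.18 and CDKN1A up by 0.88. OXA plus Curcumin gave 4 higher and 1 lower in HT29 (18.6% of all names called, median 0.08) and 5 higher and 1 lower in HTOXAR3 (17.5% called, median 0.24), with the cell cycle inhibitor CDKN1A up by 2.16 and 2.48. Adding Curcumin gave 3 higher and 0 lower in HT29 (5.53% of all names called, median 0.02) and 4 higher and 1 lower in HTOXAR3 (8.83% called, median 0.00), where CDKN1A was up by 2.12 and 1.60.

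**Figure D4:**
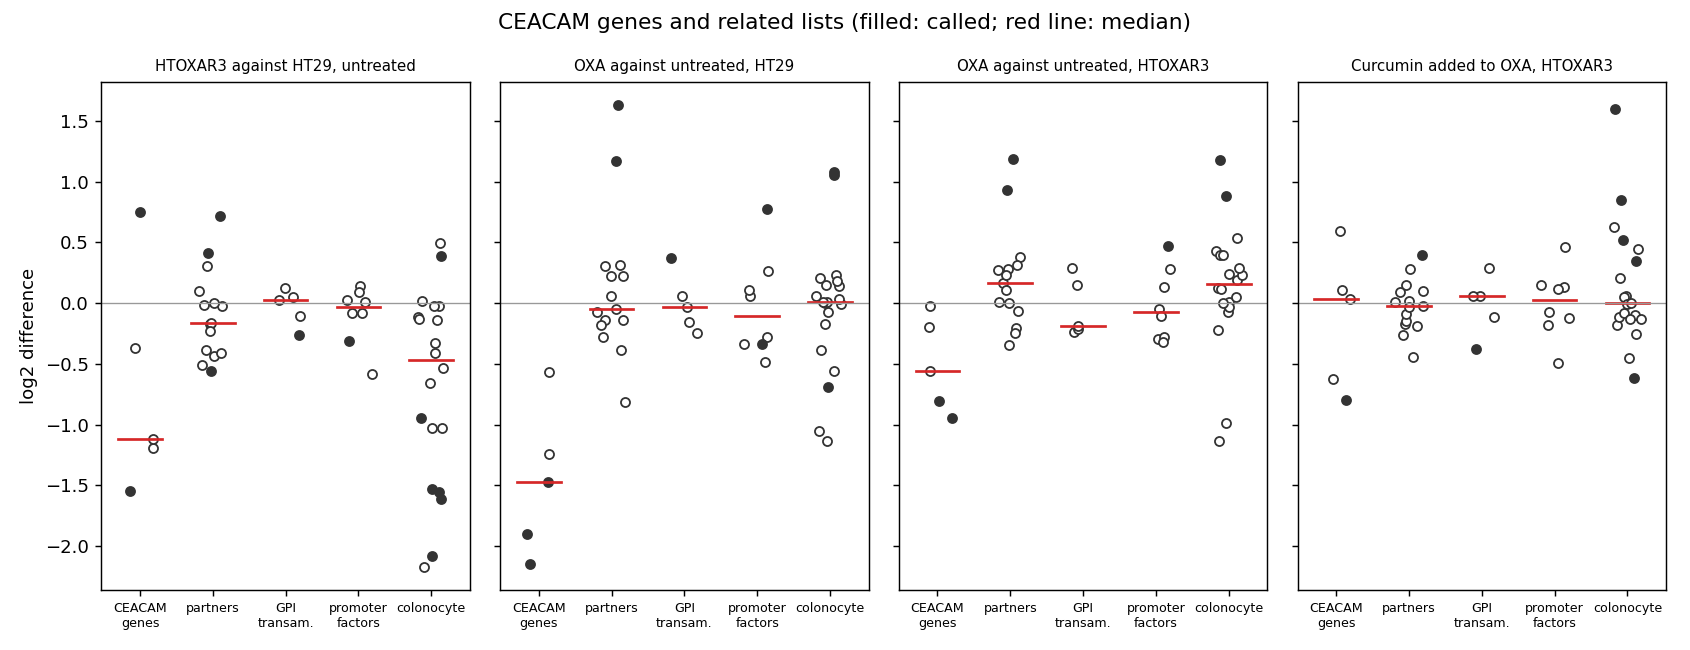
Log2 difference (vertical axis) of the 5 CEACAM genes and of the genes of 4 related lists (horizontal axis) in 4 comparisons, with filled points for called genes and a red line at the median. For OXA in HT29 the median of the CEACAM genes is -1.47, while the medians of the other lists lie between -0.11 and 0.01.

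Epithelial genes were listed as 12 markers, of which 9 were above background on all arrays, KRT18 giving the highest intensity on each. Levels of different probes are not compared as RNA levels, so the brightest gene and the sum of a list describe signal only, here and below. Their summed intensity was 738727 to 768611 in untreated HT29, 808141 to 841678 with OXA and 829222 to 882367 with OXA plus Curcumin, and 763018 to 784199, 761764 to 770520 and 874749 to 877322 in the same HTOXAR3 groups. In untreated HTOXAR3 3 of 12, VIL1, LGALS4 and CDH17, were lower than in HT29 and 0 higher (11.5% of all names called). With OXA 2 of 12 were lower in HTOXAR3 than in HT29 (14.1% called), and with OXA plus Curcumin 3 were lower (13.9% called), with 0 higher in each. OXA gave 1 higher and 1 lower in HT29 (15.9% called), and OXA plus Curcumin gave 3 higher and 1 lower in HT29 (18.6% called) and 3 higher and 2 lower in HTOXAR3 (17.5% called). Adding Curcumin in HTOXAR3 gave 2 higher, KRT19 and KRT20, and 2 lower, LGALS4 and GPA33 (8.83% called). Their medians ran from -0.19 to 0.17, and their part in the CEACAM results was not tested. Fibroblast markers were above background on all arrays for 0 of 7 genes, and COL1A2, COL3A1 and PDGFRA on 0 arrays. Of these 7 genes 1 was called in each of 2 comparisons, COL1A1 higher with OXA in HT29 (15.9% of all names called) and LUM lower in HTOXAR3 than in HT29 with OXA plus Curcumin (13.9% called), with a summed intensity from 86.3 on the lowest to 201 on the highest array, where DCN, LUM, COL1A1 or PDGFRB was brightest. Their medians ran from -0.51 to 0.16.

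Among leukocyte markers 4 of 5 were above background on all arrays, CD14 being brightest, and CD14 moved in part like CEACAM1. Their summed intensity was 2425 to 2685 in untreated HT29, 1532 to 1576 with OXA and 1947 to 2564 with OXA plus Curcumin, and 3061 to 3224, 2206 to 2318 and 2443 to 2476 in HTOXAR3. CD14 fell by 0.92 with OXA in HT29 and by 0.59 in HTOXAR3. The medians of the leukocyte markers ran from -0.08 to 0.16, and their part in the CEACAM results was not tested. Granulocyte markers summed to 182 to 301 over the arrays, CSF3R being brightest, and had 1 of 4 genes called in 2 of 12 comparisons, MPO, which rose by 0.84 in HT29 and 0.79 in HTOXAR3 with OXA plus Curcumin, beside 18.6% and 17.5% of all names called (medians of the list -0.16 to 0.26). Endothelial markers, with 2 of 3 above background on all arrays and CDH5 or VWF brightest, summed to 242 to 339. In limma 0 of 3 were called in each comparison, beside 0.135% to 18.6% of all gene names, with 0 to 2 at an unadjusted p under 0.05, and their medians ran from -0.27 to 0.30.

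Genes with the pattern most like each CEACAM gene over the 18 arrays were sought among 17387 or 17388 names above background throughout, as a description. For CEACAM1 these were FRY, TAZ and PACS2 (each r = 0.99). For CEACAM6 they were CYP1B1, C6orf120 and DGKQ (each r = 0.97). The means of CYP1B1 were 12.29, 11.21 and 11.69 in HT29 (untreated, OXA, OXA plus Curcumin) and 11.53, 10.85 and 10.84 in HTOXAR3, highest in untreated HT29 as for CEACAM6. For CEACAM5 the nearest were LOC93432 (r = 0.91), TOR4A (r = 0.90) and AP2A2 (r = 0.88). For CEACAM7 they were MMAA (r = 0.91), NYX (r = 0.85) and RAB7A (r = 0.85). For CEACAM19 they were the unnamed probe A_33_P3412687 (r = 0.94), SMCR2 (r = 0.92) and the unnamed probe A_33_P3324781 (r = 0.89). Among the members CEACAM6 correlated with CEACAM5 at r = 0.73 and with CEACAM7 at r = 0.74, and with CEACAM1 at r = 0.19.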

How the data were processed

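Total RNA of 18 samples was hybridised to one-colour Agilent arrays, and the authors deposited the scanner's Feature Extraction output, whose mean and background signals are an intensity per spot (62976 spots, 58717 not controls). The submitters' processing notes name limma, with no version. The series' value table was not used, because its lines carry no gene name. From the scanner files, background was corrected by normexp with offset 0 (the offset is not given in the sources used here), controls were removed, arrays were quantile normalized and values taken as log2. Outlier spots were set missing, spots of a probe were averaged, and the probe with the highest mean stood for each gene name. One fit with a term per group (limma 3.58.1, R 4.3.3, data.table (version 1.17.8), tested on simulated data) gave 12 comparisons, with BY adjusted p under 0.05 and fold change above 1.2. Sequences and figures used Python 3.11.15 and matplotlib 3.10.9.

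The members and lists were chosen with earlier results of these data known. All 5 members and every probe of each were named, of each list its counts and at most the 4 largest called changes per comparison, and for each member the 3 names of highest correlation. PTPN11, USF1, USF2 and the other CEACAM genes are named without a call for their link to CEACAM1 signalling, the E-box or the family. Listed were other CEACAM genes, pregnancy-specific glycoproteins, binding and signalling partners, GPI transamidase, promoter factors, mature colonocyte genes, and epithelial, fibroblast, leukocyte, granulocyte and endothelial markers.

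All arrays were scanned on 1 day, on 3 slides, and the first slide held only untreated HT29 replicate 1 and HT29 OXA replicate 1. Deviations of same-numbered arrays correlated above 0.1 in every pair for OXA against untreated HT29 (0.12 to 0.24) and for adding Curcumin in HTOXAR3 (0.11 to 0.19), where all 3 pairs shared a slide. The offset changes the size of differences of dim genes such as CEACAM5. No 2 arrays correlated above 0.994. Alternatives were an offset of 50, the processed signal scaled to its 75th percentile, the mean of all probes, dim names left out, Benjamini-Hochberg adjustment, the slide or replicate as a block, only the groups compared, and each array left out.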

Additional observations from a re-analysis of the deposited data

Results flagged for a closer look

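Some listed genes passed limma's test of the difference between the lines in a response, which 1.01% of all gene names passed for OXA and 0.856% for OXA plus Curcumin. The filamin gene FLNA rose less with OXA in HTOXAR3 than in HT29, by -0.69 (SE 0.11, BY adjusted p = 0.0206). The microvillus gene VIL1 showed a line difference of -0.82 in the response to OXA (SE 0.10, BY adjusted p = 0.00448) and of -0.82 in the response to OXA plus Curcumin (SE 0.10, BY adjusted p = 0.00762). The lectin gene LGALS4 showed a line difference of -0.65 in the response to OXA plus Curcumin (SE 0.11, BY adjusted p = 0.0419).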

How the results depend on the processing

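With 3 arrays a group, and slides shared unevenly among groups, single arrays and settings moved some member calls. The shares of all gene names given above belong to the main fit, and shares under the other settings are not given. The counts here and in the next paragraph therefore describe the members' calls only, and do not set the members apart from other genes. In the comparison of the untreated lines Benjamini-Hochberg called 4 members, only the groups compared 3 and the slide as a block 1, and leaving out any 1 array left 1. For OXA plus Curcumin in HT29 Benjamini-Hochberg and the mean of all probes gave 3. For OXA in HT29 an offset of 50, the mean of all probes, dim gene names left out, Benjamini-Hochberg and only the groups compared each gave 4. In both comparisons the call added with the mean of all probes was CEACAM7, averaged with a probe above background on 0 of 18 arrays. Between the lines with OXA only the groups compared gave 1, and leaving out an array gave 1 to 2. Between the lines with OXA plus Curcumin the mean of all probes gave 2, Benjamini-Hochberg 2, and leaving out an array 1 to 2. For OXA in HTOXAR3 the mean of all probes gave 1, only the groups compared 1, and leaving out an array 1. For OXA plus Curcumin in HTOXAR3 only the groups compared gave 1.

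For Curcumin added to OXA in HT29 the slide as a block, the replicate block, only the groups compared and leaving out any array each gave 0, where limma had called CEACAM6 and 2 members had an unadjusted p under 0.05. For Curcumin added to OXA in HTOXAR3 the mean of all probes, only the groups compared and leaving out any array each gave 0, where limma had called CEACAM1 and 1 member had an unadjusted p under 0.05. For the line difference in the response to OXA an offset of 50, dim gene names left out, Benjamini-Hochberg and the slide as a block each gave 1, CEACAM6.

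Values that were not called changed sign in some settings, and no value of changed sign was called. With the mean of all probes, which averages in a probe above background on 0 of 18 arrays, CEACAM7 was 0.26 between the lines with OXA, -0.14 for OXA plus Curcumin in HTOXAR3 and -0.33 for the line difference in the effect of adding Curcumin. With the processed signal CEACAM19 was 0.0018 for OXA in HTOXAR3, and CEACAM5 was -0.34 for the line difference in the response to OXA plus Curcumin. With the slide as a block that CEACAM5 value was -0.078, CEACAM7 was -0.00018 and CEACAM19 -0.0034 for OXA plus Curcumin in HTOXAR3, and CEACAM19 was -0.17 for the line difference in the effect of adding Curcumin. The second probe of CEACAM1 on its own gave 0.098 for the line difference in the response to OXA plus Curcumin. The second probe of CEACAM7, above background on 0 of 18 arrays, gave 0.19 between the untreated lines, 0.95 between the lines with OXA, 0.065 for OXA in HTOXAR3, -0.32 for OXA plus Curcumin in HTOXAR3 and -0.39 for Curcumin added to OXA in HTOXAR3. It gave -0.24 for the line difference in the response to OXA plus Curcumin and -1.01 for that in the effect of adding Curcumin.

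With 1 array left out, CEACAM7 ran from -0.62 to 0.24 between the lines with OXA plus Curcumin, where -0.62 was called, and from -0.50 to 0.35 for OXA plus Curcumin in HTOXAR3. For OXA in HTOXAR3 CEACAM5 ran from -0.65 to 0.13 and CEACAM19 from -0.26 to 0.12. CEACAM19 ran from -0.15 to 0.23 for OXA plus Curcumin in HTOXAR3 and from -0.081 to 0.27 for Curcumin added to OXA in HT29. For Curcumin added to OXA, CEACAM1 ran from -0.15 to 0.29 in HT29 and CEACAM6 from -0.0259 to 0.0937 in HTOXAR3. For the line difference in the response to OXA plus Curcumin, CEACAM1 ran from -0.41 to 0.0336 and CEACAM5 from -0.0741 to 0.59. For the line difference in the effect of adding Curcumin, CEACAM7 ran from -0.19 to 0.67 and CEACAM19 from -0.17 to 0.19. Scaling by the processed signal moved the median of all genes by up to 0.20, and 16 of 16 called member values kept their direction relative to it, the smallest at a size of 0.62. The cause of these shifts was not tested.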
